A study of Mus musculus with 12 samples.

Results

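The genes described here are those of the cytoplasmic ribosomal proteins of the mouse. They were taken by symbol from the GENCODE M21 annotation of the mm10 genome: protein-coding genes named Rpl or Rps followed by digits and at most one of the letters a, l or x, together with Rplp0, Rplp1, Rplp2 and Rpsa. The Rps6k kinases were left out. The rule gave 80 genes of 21938 protein-coding genes (55413 annotated genes of all kinds), of which 49 encode large-subunit proteins, the stalk proteins included, and 31 encode small-subunit proteins. Rps4l is annotated as a pseudogene and was not a member.

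The chromatin came from C2C12, an established line of mouse myoblasts whose cells fuse to myotubes in low serum. CUT&RUN was used: a nuclease is brought to the antibody's target, and the DNA it cuts loose is sequenced. The cells were taken at day 0, at day 1 and at day 5 of differentiation in DMEM with horse serum, and the day 5 culture was parted by mild trypsin into myotubes and reserve cells, the mononucleated cells that did not fuse. Each state was profiled with antibodies to H3K4me3 and to MBD2 and with a control IgG, so that 8 peak lists were used and the 4 IgG libraries were not analysed here. With 1 library per antibody and state, differences between states have no replicates behind them and were not given p-values. C2C12 is a single immortal line, and the labels name no separate cultures. The sources used here do not give the reads behind each list, so depth is unknown. Values for the 4 states follow the order day 0, day 1, myotubes, reserve cells throughout. At the lineage genes chosen as markers, 3 of 3 myoblast genes carried promoter H3K4me3 in all 4 states. Of 9 myotube genes, 0, 9, 9 and 8 were marked, with median peak lengths of 2172, 9191 and 2401.5 bp in the 3 later states. The reserve-cell library thus carried the mark at myotube genes too, and its content of fused cells was not tested. Of 3 genes for each other cell type, 0, 0, 1 and 0 were marked for blood and for epithelium, 2, 2, 1 and 1 for neurons, 1, 2, 1 and 0 for endothelium, and 1 in every state for fat. The longest of these were at Tubb3, a neuronal tubulin (5656, 5516, 1318 and 902 bp), and Cebpa, a fat cell factor (4637, 4343, 3027 and 3913 bp).

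Ribosomal proteins coat and stabilise the ribosomal RNAs, and nearly all are needed in equal amounts, so that their genes are among the most steadily and strongly transcribed of the cell. Their genes are short, many carry small nucleolar RNAs in their introns, and most start at a C within a run of pyrimidines, the terminal oligopyrimidine tract through which mTOR signalling sets their translation. H3K4me3 is a histone mark of active start sites, and its stretch along a gene tends to be longer at strongly transcribed genes. MBD2 binds methylated CpG and belongs to the NuRD complex, which removes histone acetylation and remodels nucleosomes.

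Sequences of the start sites are described here before the chromatin values of the family. RefSeq promoter windows (GRCm38.p6, 250 bases before to 50 after the start, taking the RefSeq start nearest the GENCODE 5′ end) were matched by symbol for 60 of the 80 genes. Below are 25 bases around the annotated start of 6 members and of Rplp0, with the pyrimidine run led by a C nearest to the start in capitals and the start at the eleventh base. These were printed because the start is the one sequence element that translation control of the family reads.
Rpl15, large subunit, chr14:18270972-18270996, minus strand: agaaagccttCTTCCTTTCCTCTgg
Rpl35, large subunit, chr2:39005117-39005141, minus strand: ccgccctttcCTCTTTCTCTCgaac
Rpl28, large subunit, chr7:4792955-4792979, plus strand: tctcgtgtctCTCTTTCCgtctccg
Rps6, small subunit, chr4:86857353-86857377, minus strand: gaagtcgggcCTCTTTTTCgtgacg
Rps10, small subunit, chr17:27635230-27635254, minus strand: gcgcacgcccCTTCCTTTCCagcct
Rps18, small subunit, chr17:33955651-33955675, minus strand: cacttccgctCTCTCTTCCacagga
Rplp0, stalk, chr5:115559457-115559481, plus strand: cgggtttcgaggaccgcctggttct
A C at the annotated start followed by 4 pyrimidines was found in 12 of the 60 windows and in 2.19% of the windows of 16521 protein-coding genes. Within 10 bases of the start it was found in 35 of 60 (58.3%) beside 31.3% of all. Rplp0 had none at its RefSeq start, and the other starts shown were all taken from the 12 windows with the run at the annotated start.

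Other letters were searched on both strands of the same windows. The ETS-type motif CCGGAAG was present in 24 of 60 windows (40.0%), in 12.4% of all protein-coding windows and in 19.1% of those with H3K4me3 at day 0. The palindromic ZBTB33 motif was present at 5 genes, Rpl12, Rpl26, Rps19, Rps28 and Rps6 (8.33%, beside 0.745% of all and 1.14% of marked genes). The GC box GGGCGG stood in 35 windows (58.3%), between the share of all genes (48.4%) and that of marked genes (67.8%). TATAAA was found at Rpl36a, Rpl39, Rplp0, Rps2 and Rps28 (8.33%, between 12.9% of all and 6.43% of marked genes). The E-box CAGCTG, a letter pattern that myogenic factors bind, was found at Rpl10l, Rpl35, Rpl3l and Rpl6. This was 6.67%, beside 15.2% of all and 14.3% of marked genes. The YY1 motif occurred at Rpl13a and Rpl35a (3.33%, beside 1.36% of all and 2.22% of marked genes). The NRF1 motif occurred at Rpl37a (1.67%, beside 1.39% of all and 2.16% of marked genes). These matches describe letters in a window and do not show binding.

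Promoter H3K4me3, meaning a deposited peak within 1 kb of any annotated start, was found at 77, 77, 78 and 77 of the 80 genes. The same was true of 56.5%, 56.2%, 57.3% and 54.8% of all protein-coding genes. For 77 of 80 the exact 95% binomial interval is 89.4 to 99.2%, which covers counting error only. All 31 small-subunit genes were marked in every library. The exceptions were 3 paralogs of large-subunit genes. Rpl10l, an intronless copy of Rpl10 known from the testis, and Rpl39l, a testis-enriched copy of Rpl39, had no promoter peak in any of the 4 libraries. Rpl3l, the striated-muscle form of Rpl3, had a peak in myotubes and in no other state.

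The parent genes of these paralogs were marked throughout. Rpl10 had promoter peaks of 4780, 3999, 3968 and 3352 bp in the 4 states. Rpl39 had peaks of 4805, 3419, 3344 and 3195 bp. Rpl3 had peaks of 6666, 4754, 6071 and 3550 bp. Rps27l, a p53-induced copy of Rps27, differed from the other paralogs in being marked in all states, with 2580, 2369, 2651 and 1941 bp beside 4420, 3186, 3326 and 2925 bp at Rps27.

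The myotube peak of Rpl3l was small. It spanned chr17:24731943-24732593 (651 bp) with a fold enrichment of 6.35 over the caller's background and a pileup of 17 fragments at its summit. Among the myotube peaks its fold ranked at the 39.8th percentile. The peak did not lie at the first annotated start of the gene (position 24727820). Its summit was 231 bp before the second, internal start (position 24732685). With the 5′ end of the gene as the only start Rpl3l was unmarked in myotubes too. A promoter peak was gained from day 0 to myotubes at 5.33% of the protein-coding genes unmarked at day 0 and from reserve cells to myotubes at 7.09%, so 1 of 3 unmarked members is a count too small to read against them. The gains at day 1 and in reserve cells were 1.72% and 1.38%, and no member gained a peak there. No member lost its peak in any comparison, against losses at 1.86%, 2.77% and 4.12% of genes marked at day 0 and at 1.32% from reserve cells to myotubes. Rps2, Ndufb10 and Msrb1 lie within a few kilobases of Rpl3l and carried H3K4me3 in all states.

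The bases before the RefSeq starts of the 3 paralogs are given beside those before Rplp0, a gene marked in all states, to show the letters of the starts that lacked the mark. The CpG dinucleotides, the sites MBD2 can recognise when methylated, are in capitals.
Rpl3l, first start, chr17:24727576-24727819, plus strand: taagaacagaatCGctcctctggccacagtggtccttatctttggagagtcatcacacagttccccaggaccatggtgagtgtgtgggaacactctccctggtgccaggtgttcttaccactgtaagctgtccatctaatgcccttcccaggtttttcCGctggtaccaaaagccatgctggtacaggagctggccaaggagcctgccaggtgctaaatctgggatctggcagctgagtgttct
Rpl10l, chr12:66284402-66284651, minus strand: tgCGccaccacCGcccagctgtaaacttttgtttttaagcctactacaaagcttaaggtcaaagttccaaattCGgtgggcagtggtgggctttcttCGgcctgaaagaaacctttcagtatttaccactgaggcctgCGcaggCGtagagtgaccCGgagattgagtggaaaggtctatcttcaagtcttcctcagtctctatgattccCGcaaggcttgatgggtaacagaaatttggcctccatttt
Rpl39l, chr16:10169978-10170225, plus strand: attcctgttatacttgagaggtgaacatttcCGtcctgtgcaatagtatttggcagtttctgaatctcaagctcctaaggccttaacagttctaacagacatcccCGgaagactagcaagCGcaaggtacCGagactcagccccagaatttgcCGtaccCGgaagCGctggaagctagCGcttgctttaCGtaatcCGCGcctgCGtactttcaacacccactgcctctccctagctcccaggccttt
Rplp0, chr5:115559217-115559466, plus strand: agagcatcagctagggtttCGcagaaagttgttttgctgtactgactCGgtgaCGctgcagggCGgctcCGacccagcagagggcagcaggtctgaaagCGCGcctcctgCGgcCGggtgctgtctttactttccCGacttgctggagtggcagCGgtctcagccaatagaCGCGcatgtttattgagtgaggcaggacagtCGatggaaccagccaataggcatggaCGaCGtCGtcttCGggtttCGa
These stretches hold 2 CpG at Rpl3l, 8 at Rpl10l, 12 at Rpl39l and 19 at Rplp0. Over the windows of 300 bases the 60 matched members had a median of 21 CpG (range 2 to 35), beside 14 for all protein-coding genes and 22 for those with H3K4me3 at day 0. Some marked genes held fewer CpG than some unmarked ones: the windows of Rpl10l and Rpl39l held 13 and 17, and those of the marked genes Rpl6, Rpl11 and Rpl24, chosen after their values were seen, held 8, 10 and 10. Counted within 500 bp of the GENCODE 5′ end, all 80 members had a median of 65 CpG and the protein-coding genes marked at day 0 a median of 64, and the lowest counts were at Rps14 (10) and Rpl17 (11), both marked, and at Rpl3l (12).

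The H3K4me3 peaks of the ribosomal protein genes were long. Their median lengths in the 4 states were 4416, 3031, 3186 and 2542 bp, beside 2750, 2488, 2427 and 2170.5 bp over all marked protein-coding genes. Of the 77 marked members at day 0, 72 had a peak longer than that median of all genes, and 26 were in the longest 10% of promoter peaks. The numbers in the longest 10% were 6, 8 and 3 in the later states. Large-subunit and small-subunit genes had almost the same day 0 medians, 4359 and 4420 bp. The height of the peaks was ordinary: the authors' fold enrichment had a median of 45.0 at day 0 among the members and 46.8 among all marked genes, and the median member stood at the 46.3rd percentile of promoter peaks at day 0 and at the 54.4th in myotubes. Fold and pileup are the authors' values per peak and are read here only within a list.

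**Figure D1:**
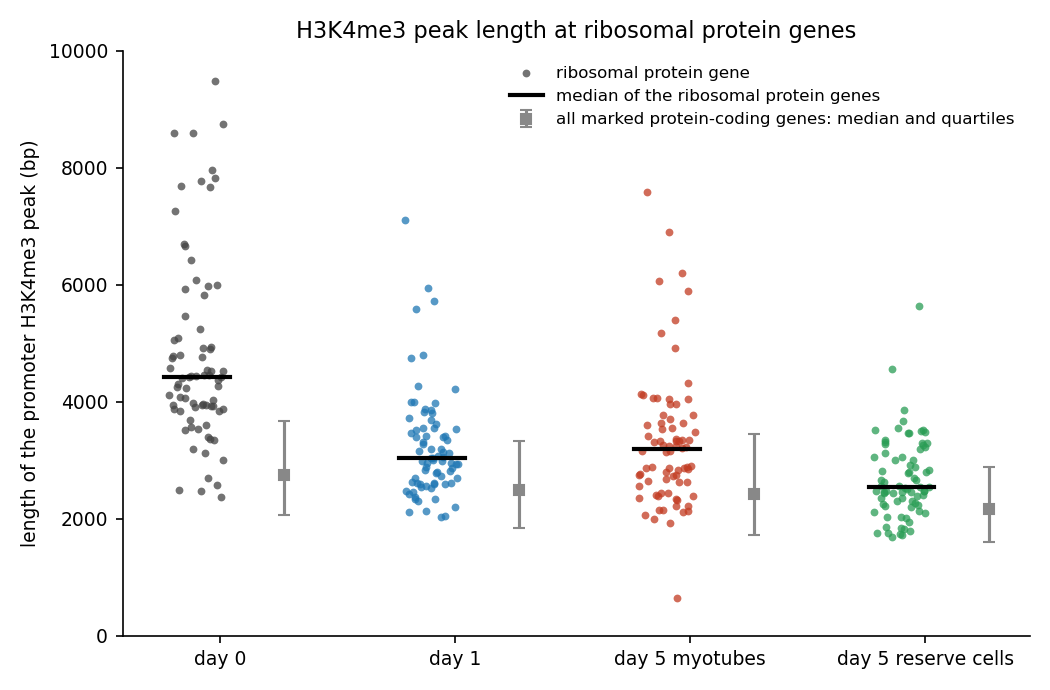
Length in bp of the promoter H3K4me3 peak of each marked ribosomal protein gene (points) in the 4 cell states, with their median (black bar) and, to the right in grey, the median and quartiles of all marked protein-coding genes. The black bar stands above the grey square in every state, most so at day 0 (4416 against 2750 bp), and the single low point in myotubes is Rpl3l at 651 bp.

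The longest peak at day 0 was that of Rpl7a, a large-subunit gene with 3 small nucleolar RNAs, at 9487 bp, and it also covered the starts of Med22, Surf1 and Surf2. Rpl23a followed with 8755 bp, covering Nek8 and Tlcd1. Rpl35 had 7966 bp. The shortest were those of Rpl38 (2363 bp), Rps26 (2474 bp), Rps23 (2486 bp), Rps27l (2580 bp) and Rpl36 (2692 bp). The 24 members whose day 0 peak held another protein-coding start had a median of 6251.5 bp. The 53 members alone in their peak still had a median of 3985 bp.

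The order of the lengths changed among the states. Rpl35 had the longest peak at day 1 (7099 bp) and in myotubes (7582 bp), and Rpl7 the longest in reserve cells (5636 bp). At day 1 Rps2 (5948 bp), Rpl7 (5716 bp), Rpl18 (5578 bp) and Rps14 (4795 bp) followed Rpl35. In myotubes Rpl7 (6895 bp), Rpl18 (6205 bp), Rpl3 (6071 bp) and Rps2 (5898 bp) followed it. In reserve cells Rps14 (4560 bp), Rpl10a (3862 bp), Rps18 (3677 bp) and Rpl3 (3550 bp) followed Rpl7.

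The short end was more stable. Rps23 was among the 5 shortest marked members in all 4 states, with 2486, 2110, 2063 and 1759 bp. At day 1 the others were Rpl26 (2022 bp), Rpl36a (2038 bp), Rps26 (2129 bp) and Rpl38 (2202 bp). In myotubes they were Rpl3l, Rpl36a (1919 bp), Rps26 (2002 bp) and Rplp2 (2119 bp), and in reserve cells Rpl29 (1679 bp), Rpl8 (1725 bp), Rpl5 (1745 bp) and Rpl36a (1761 bp).

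By their medians, the peaks reached further downstream of the gene start than upstream of it. At day 0 the median peak reached 916 bp upstream and 3291 bp downstream of the gene start, against 811 and 1790 bp over all marked protein-coding genes. The downstream reach in the 3 later states was 2209, 2273.5 and 1862 bp (1633, 1574 and 1424 bp over all). Since the genes are short, the day 0 peak ended a median of 26 bp past the 3′ end of the gene, and in the later states it ended before the 3′ end, at medians of -980, -763 and -1320 bp from it. The mark covered 39 of the 77 marked genes from end to end at day 0, and 16 of 77, 14 of 78 and 8 of 77 later. Among protein-coding genes of like length (the middle range of the members, 2476.2 to 4510.8 bp), 12.5%, 6.93%, 7.32% and 4.08% were covered whole, beside 20, 4, 2 and 2 of the 40 members in that range. In that range the shares at day 0 stood far apart, whereas in myotubes and reserve cells 2 of 40 is close to the background.

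**Figure D2:**
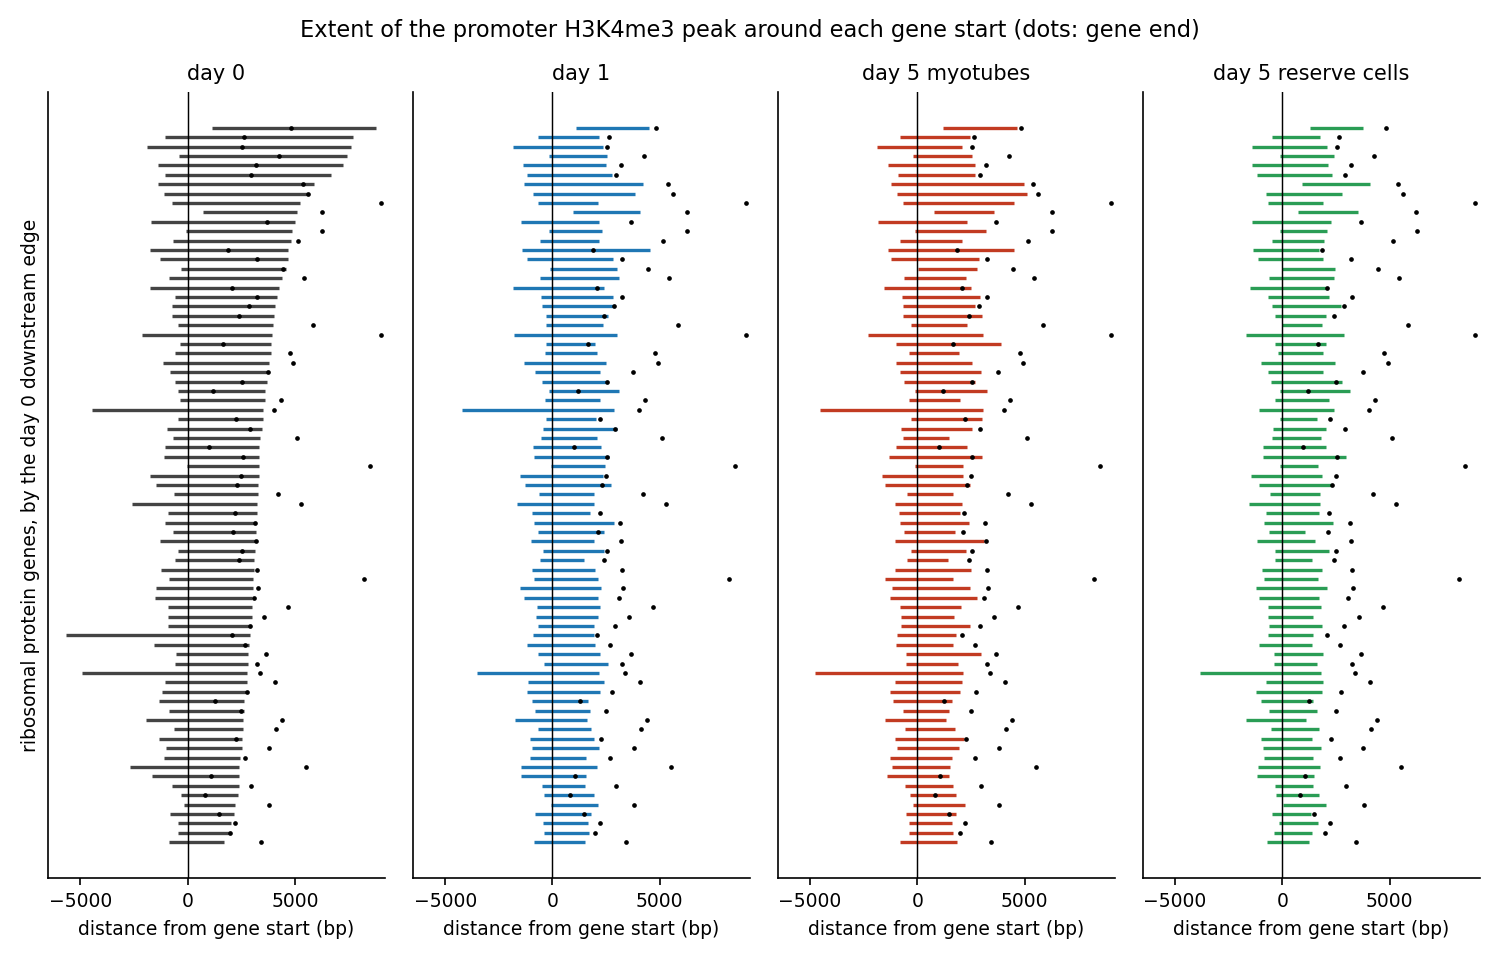
Extent of the promoter H3K4me3 peak of 77 ribosomal protein genes in bp from the gene start (vertical line), 1 row per gene in the same order in every panel, sorted by the day 0 downstream edge, with the gene end as a black dot (drawn at the right edge where the gene is longer than the axis). The left edges move little between the panels while the right edges draw back, from a median of 3291 bp at day 0 to 1862 bp in reserve cells.

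From day 0 to day 1 all 77 members marked in both had a shorter peak, as did 79.1% of all genes. The median length ratio was 0.721, and over all 12172 genes marked in both libraries it was 0.910. A peak shorter by 1.5 times or more was found at 27 of 77 members, against 5.65% of all genes and 6.09% of genes whose day 0 peak was about as long (between the quartiles of the members' lengths). From day 0 to myotubes 73 members had a shorter peak (70.9% of all genes did) and 4 a longer one, with a median ratio of 0.740 (0.888 over all) and 26 shorter by 1.5 times, against 14.5% of all genes and 16.5% of genes with a day 0 peak of like length. From day 0 to reserve cells all 77 had a shorter peak, near the background of 93.9% of all genes, with a median ratio of 0.601 (0.788 over all) and 57 shorter by 1.5 times, against 19.7% and 22.2%. No member was longer by 1.5 times than at day 0 (1.04%, 5.73% and 0.723% of all genes were, and 0.296%, 3.50% and 0.0591% of those with a day 0 peak of like length). These 3 comparisons share the day 0 library.

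All peaks were shorter on the whole after day 0, with log2 ratios at the median gene of -0.14, -0.17 and -0.34 in the later states. Divided by that shift, the median member was still at 0.792, 0.834 and 0.762 of its day 0 length, and 73, 66 and 74 of 77 members lay below the median gene. The number shorter by 1.5 times was then 16, 17 and 22, beside 3.48%, 9.28% and 6.52% of all genes. Counted as bases covered within 5 kb of the 5′ end, which joins split peaks, it was 14, 17 and 51, beside 4.81%, 12.9% and 18.9%.

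The shortening lay on the side of the gene body. The downstream edge had median shifts of -997, -978 and -1428 bp in the later states, and the upstream edge of -144, -79 and -249 bp. Over all genes the downstream shifts were -126, -174 and -331 bp. The downstream edge drew back further than the upstream edge at 71, 69 and 72 of 77 members, against 53.4%, 56.1% and 63.4% of all genes. The 53 members alone in their day 0 peak gave downstream shifts of -956, -980 and -1383 bp. Genes as short as the members shortened less, with 10.9%, 17.5% and 27.6% of them shorter by 1.5 times. The H3K4me3 lists differ in their number of peaks (19218, 17665, 26034 and 15920) and in the authors' median fold over all peaks (29.0, 38.6, 9.55 and 39.8), and the part of such differences in the lengths was not tested.

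**Figure D3:**
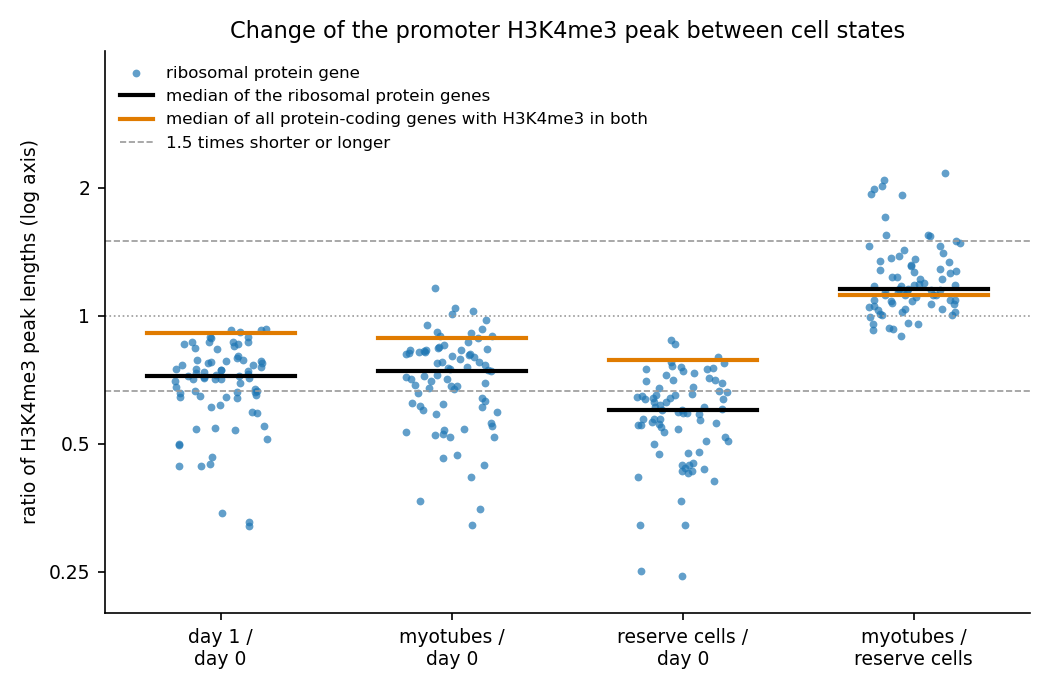
Ratio of H3K4me3 peak lengths between cell states for each ribosomal protein gene marked in both (points, log axis), with their median in black and the median of all protein-coding genes in orange; dashed lines mark 1.5 times. Against day 0 the black bar is below the orange bar in each of the 3 comparisons (0.721 against 0.910 at day 1), and between myotubes and reserve cells the bars nearly meet (1.16 and 1.12).

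Rpl23a, Rplp0, Rpl7a and Rpl17 were among the 5 largest contractions in each comparison, which share their day 0 values. Rpl23a went from 8755 bp to 2803, 3221 and 2205 bp, with a downstream shift of -5561 bp at day 1. Rplp0, the scaffold of the ribosomal stalk, went from 7827 bp to 2693, 2746 and 2519 bp, and Rpl7a from 9487 bp to 4210, 3965 and 3485 bp. Rpl17 went from 7666 bp to 3405, 3418 and 2469 bp. All 4 of these day 0 peaks covered the start of another gene, Gcn1l1 at Rplp0 and BC031181 at Rpl17. At Rpl23a the day 0 summit lay 6769 bp downstream of the start, past the end of the gene of 2650 bp. Bases covered within 5 kb of the 5′ end, other peaks included, changed less than the peak lengths. They were 7555, 5769, 6558 and 4461 at Rpl23a and 3873, 3405, 3418 and 2469 at Rpl17.

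Some members hardly changed. Rpl38, already short, had 2363, 2202, 2392 and 2030 bp. Rps2 kept 6428, 5948 and 5898 bp to myotubes but had 3050 bp in reserve cells, where another peak of 2273 bp lay within the span of its day 0 peak. Rpl31 (3849 to 3557 bp) and Rpl35 (7966 to 7099 bp) changed least from day 0 to day 1 together with Rps27l, Rps2 and Rpl38. From day 0 to reserve cells the least shortened were Rpl10a (4412 to 3862 bp), Rpl38, Rpl41 (4059 to 3252 bp) and Rps6 (3918 to 3047 bp). In myotubes Rps15 (4244 to 4924 bp), Rpl11 (3337 to 3485 bp), Rps27l (2580 to 2651 bp) and Rpl38 were the 4 with a longer peak than at day 0, and Rpl10a followed at 4324 bp.

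The members of the ribosomal stalk, which recruits the elongation factors, differed in peak length mainly at day 0. Rplp1 had 3985, 2618, 2725 and 2436 bp and Rplp2 had 3925, 2593, 2119 and 2357 bp. Rplp0 started from 7827 bp, in the peak that also covered the start of Gcn1l1, and then had 2693, 2746 and 2519 bp. All 3 were within the day 0 range of the members, 2363 to 9487 bp. Rpsa, a small-subunit protein also known as a laminin receptor, had 3937, 2947, 2855 and 2467 bp. Its myotube fold enrichment of 14.3 was the lowest of the marked members there after Rpl3l. Rps6, the small-subunit protein phosphorylated by S6 kinase, had 3918, 3392, 3262 and 3047 bp. Rps27a, made as a fusion with ubiquitin, had 3848, 2988, 3245 and 2381 bp. Rpl5 and Rpl11, which together with 5S ribosomal RNA restrain MDM2 when ribosome assembly fails, had 3369, 2518, 2222 and 1745 bp and 3337, 2870, 3485 and 2252 bp. Rpl5 thus had a shorter peak in both day 5 fractions, while Rpl11 in myotubes was slightly above its day 0 length.

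Between the day 5 fractions the myotube peak was longer at 69 and shorter at 8 of 77 members (10.4% shorter). Over all genes it was longer at 8715 of 11865 and shorter at 26.5%. The members had a median ratio of 1.16 beside 1.12 over all genes. The peak was longer by 1.5 times at 11 members, against 14.3% of all genes and 11.7% of genes with a reserve-cell peak of like length, and no member was shorter by 1.5 times (3.24% of all and 2.51% of those with a reserve-cell peak of like length). The share of the members longer by 1.5 times, 14.3%, is at the background. The largest ratios were at Rpl35 (7582 bp in myotubes against 3500 bp in reserve cells), Rps15 (4924 against 2356 bp), Rps15a (5176 against 2556 bp), Rpl18 (6205 against 3131 bp) and Rps2 (5898 against 3050 bp). At Rpl35 and Rpl18 most of the added length was upstream, with upstream shifts of 3473 and 2185 bp, and at Rps15a, Rps2 and Rps15 it was downstream, with downstream shifts of 2619, 2806 and 1899 bp. These values compare the longest peak only, and a peak split in reserve cells raises them. Rpl18 had 2 promoter peaks in reserve cells, and its bases covered within 5 kb were 6205 in myotubes and 4699 in reserve cells. At Rps2 another reserve-cell peak, of 2273 bp, lay within the span of the myotube peak. The smallest ratios were at Rplp2 (2119 against 2357 bp), Rps28 (2678 against 2892 bp), Rps7 (2146 against 2303 bp), Rps20 (2380 against 2545 bp) and Rps16 (2143 against 2242 bp).

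The host genes of small nucleolar RNAs had somewhat longer median peaks in 3 of the 4 states. The 29 marked members with at least 1 annotated inside (56 such RNAs in all, 5 of them in Rpl4) had medians of 4780, 3346, 3243 and 2545 bp, against 4180, 2993.5, 3012 and 2530.5 bp for the 48 without. The 4 X-linked members, Rpl10, Rpl36a, Rpl39 and Rps4x, had lower peaks than the family, with median folds of 23.04, 32.8, 22.5 and 34.3. All marked X-linked protein-coding genes were low as well, with 28.7, 35.2, 22.2 and 33.1.

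MBD2 was found at 14 ribosomal protein gene promoters at day 0, at 1 on day 1, and at none in either day 5 fraction. The share at day 0, 17.5% (exact 95% interval 9.91 to 27.6%, counting error only), compares with 11.1% of all protein-coding genes and 19.0% of those with H3K4me3, and 18.2% of the marked members had MBD2, so that the family was at the level of other marked genes. The corresponding backgrounds were 0.998% and 1.69% at day 1, then 0.620% and 0.987% for myotubes, and 0.251% and 0.374% for reserve cells. A count of 0 of 80 allows a share of up to 3.75% taken as 3 counts of the total, and up to 4.51% by the exact interval. The MBD2 lists hold 14948, 452, 288 and 111 peaks, so the fall over the family follows that of the whole lists, and a difference in binding and a difference in library depth or background cannot be told apart. With the strongest peaks of each MBD2 list taken in equal numbers, no member had MBD2 at day 0 or at day 1.

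The day 0 MBD2 peaks lay at 12 of the 46 marked large-subunit genes and at 2 of the 31 small-subunit genes, Rps29 and Rps26. With the stronger 50% of the list 4 members were left, Rpl22, Rpl10, Rps29 and Rps26. A difference between the subunits was not tested. The strongest peak was at Rpl22, with a fold enrichment of 15.4 and a pileup of 20 fragments, rank 645 of the 14948 peaks. Rpl10 (fold 10.04) and Rps29 (9.97) followed with 13 fragments each and Rps26 (5.91) with 8. Lower folds were found at Rpl10a and Rpl11 (both 5.15), Rpl38, Rpl41, Rpl7 and Rpl15 (4.30 each), Rpl27 (3.91), Rpl36 (3.68) and Rpl30 (3.58), with pileups of 4 to 6. The median fold of 4.44 was below the 5.88 over all genes with MBD2 at the promoter. Rpl22 was also the gene with MBD2 at day 1, in a peak of 188 bp with a fold of 8.55 and a pileup of 10, rank 101 of 452, which lay within the day 0 peak.

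**Figure D4:**
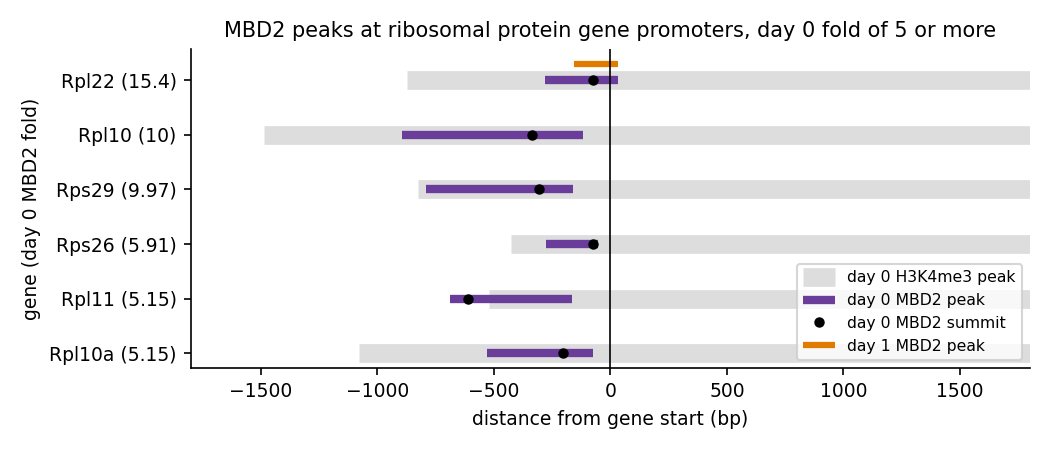
MBD2 peaks at the 6 ribosomal protein gene promoters whose day 0 peak had a fold of 5 or more, in bp from the gene start, with the summit as a dot, the day 0 H3K4me3 peak in grey (drawn to 1800 bp) and the day 1 MBD2 peak of Rpl22 in orange; the fold enrichment is in parentheses. The 6 summits lie left of the start, and all but that of Rpl11 lie over the grey bar.

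MBD2 lay just before the start and within the H3K4me3 domain. All 14 MBD2 peaks overlapped the H3K4me3 peak of the same gene, 12 had the summit inside it and 11 lay wholly inside. At the 2 others, Rpl11 and Rpl38, the summit fell just upstream of the H3K4me3 peak, 612 and 155 bp before the start (-612 and -155 bp). The summit was upstream of the start at 12 genes, with a median position of -179 bp, and downstream at Rpl7 (77 bp) and Rpl30 (168 bp). Among the 2358 marked protein-coding genes with MBD2 at day 0, the MBD2 peak overlapped H3K4me3 at 2306. The summit was inside the mark at 2258, the peak lay wholly inside at 2136, and the summit was upstream at 1536. The placing of MBD2 at the members was thus shared with other marked genes. The Rpl15 peak lay between Rpl15 and the divergent gene Nkiras1, so that it cannot be given to either. The members with MBD2 had a median H3K4me3 length of 3750 bp at day 0, against 4461 bp for the 63 marked members without it, and median folds of 46.4 and 44.5. In reserve cells, where none had MBD2, those medians were 2429 and 2542 bp.

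Stretches outside annotated exons of 3 of the 4 strongest peaks are given to show the CpG that MBD2 could meet there, in capitals, on the strand of the gene (GRCm38). That of Rpl22 ends before the summit, that of Rpl10 holds the summit, and that of Rps26 is the whole peak.
Rpl22, chr4:152325574-152325654, plus strand: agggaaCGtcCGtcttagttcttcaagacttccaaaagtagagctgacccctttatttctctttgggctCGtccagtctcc
Rpl10, chrX:74270326-74270625, plus strand: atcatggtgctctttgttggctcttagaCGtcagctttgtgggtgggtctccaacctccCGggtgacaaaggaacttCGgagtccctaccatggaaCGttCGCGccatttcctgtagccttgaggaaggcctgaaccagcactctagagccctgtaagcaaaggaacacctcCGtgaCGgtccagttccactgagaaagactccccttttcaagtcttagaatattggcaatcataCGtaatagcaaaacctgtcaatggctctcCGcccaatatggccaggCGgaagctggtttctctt
Rps26, chr10:128626799-128627024, minus strand: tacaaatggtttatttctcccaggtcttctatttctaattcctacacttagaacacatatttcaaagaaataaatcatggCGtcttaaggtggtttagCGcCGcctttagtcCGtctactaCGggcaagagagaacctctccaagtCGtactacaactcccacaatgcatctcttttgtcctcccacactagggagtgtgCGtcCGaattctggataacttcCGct
The whole Rpl22 peak held 20 CpG in 311 bp (6.43 per 100 bp), that of Rpl10 27 in 779 bp (3.47) and that of Rps26 9 in 226 bp (3.98). Across the 14 peaks the density ran from 1.33 per 100 bp at Rpl11 to 10.4 at Rpl15, with a median of 3.68, beside 4.98 over the 2281 MBD2 promoter peaks of all protein-coding genes and 1.24 over all 14948 peaks. Within 500 bp of the 5′ end the members with MBD2 had a median of 63 CpG and the marked members without it 67. The methylation of these sites was not measured.

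Genes that work with the ribosomal proteins were described from lists by role, which share the day 0 library in every comparison with it. The 8 ribosome genes outside the naming rule, such as Rps3a1 and Rpl22l1, had median H3K4me3 lengths of 3680, 2978.5, 3028.5 and 2590.5 bp. The elongation factors had the longest peaks of the lists, with 6 of 7 marked and medians of 5089.5, 4003, 4344 and 3675.5 bp. Eef1a2, the muscle and nerve form of elongation factor 1 alpha, was the unmarked one in all 4 states. Peaks shorter by 1.5 times at day 1 were found at 0 of 6 marked elongation factors, 1 of 26 initiation factors, 5 of 30 nucleolar assembly genes and 3 of 78 genes of mitochondrial ribosomal proteins, beside the 27 of 77 members. In reserve cells the counts were 1 of 6, 6 of 26, 14 of 30 and 12 of 78, beside 57 of 77. Over all genes the shares were 5.65% at day 1 and 19.7% in reserve cells.

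The mitochondrial ribosomal proteins, which serve the organelle and are encoded by another gene family, had short peaks near the all-gene medians, 2537.5, 2223, 2042.5 and 1965 bp, and their median downstream shifts in the later states were -199.5, -300.5 and -357 bp. The elongation factors drew back about as far as the members, with downstream shifts of -1029, -789 and -1272 bp. The ribosome genes outside the naming rule had shifts of -625, -599.5 and -786 bp, and their median length ratio in myotubes (0.727) was close to that of the members (0.740). The initiation factors had shifts of -371.5, -393 and -705 bp, the assembly genes of -492.5, -377.5 and -635 bp, and the regulators of -107.5, 198.5 and -371.5 bp. The 14 regulators of ribosomal protein synthesis, Mtor, Myc and Sp1 among them, had medians of 3481, 3568.5, 3972 and 3060.5 bp. MBD2 at day 0 was found at 7 of the 78 mitochondrial ribosomal protein genes, 4 of the 30 assembly genes, 3 of the 26 initiation factors, 2 of the 7 elongation factors and 6 of the 14 regulators. It was also found at 1 of the 8 ribosome genes outside the naming rule, Rps19bp1 (fold 7.33). The day 0 shares were 11.1% of all protein-coding genes and 19.0% of those with H3K4me3. Beyond day 0 the genes of these lists with MBD2 were Mrps36 at day 1 (fold 6.55), Sp1 at day 1 (20.4) and in reserve cells (5.65), and Myc in myotubes (4.76).

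**Figure D5:**
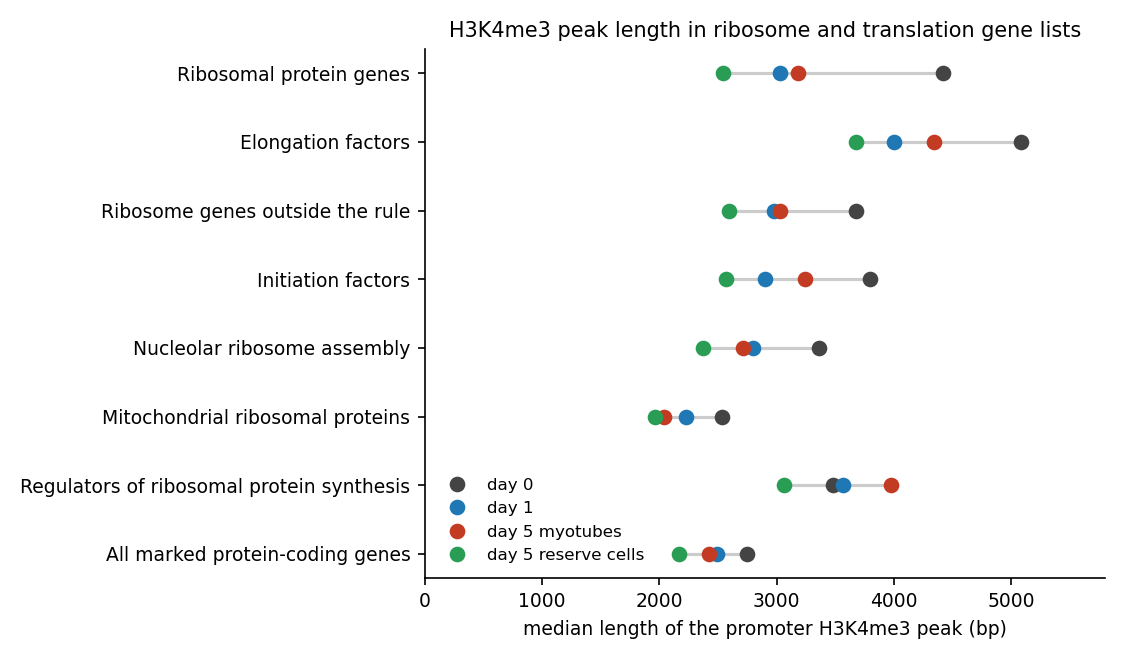
Median length in bp of the promoter H3K4me3 peak in each cell state (coloured points) for the ribosomal protein genes, 6 related gene lists and all marked protein-coding genes. Only the elongation factors have a longer day 0 median (5089.5 bp) than the ribosomal protein genes (4416 bp) among these lists, and the regulators alone have their longest median in myotubes (3972 bp).

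The many processed copies of ribosomal protein genes carried little of either mark. Of 292 annotated pseudogenes with names derived from Rpl or Rps genes, 8, 7, 7 and 6 had an H3K4me3 peak within 1 kb of their start (2.74%, 2.40%, 2.40% and 2.05%). MBD2 was found at 4 of them at day 0 and at none later. The share over all annotated pseudogenes was not counted, so these numbers have no background of their own. The sources used here do not say how reads that match both a gene and its copies were placed, and the part of such reads in the members' peaks was not tested.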

How the data were processed

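CUT&RUN peak lists of 8 libraries (4 states, H3K4me3 and MBD2) were used as deposited. Per the submitters' processing notes, the authors used Trim Galore, Bowtie2, SAMtools and MACS2 with mm10. The sources used here give no versions, no peak-calling settings and no use of the IgG libraries. Per the file headers, the deposited columns are position, pileup (a signal of fragments at the summit), −log10 of p and of q, and fold enrichment (a ratio over the caller's background). The lowest deposited −log10 q was about 1.31, near a q of 0.05.

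A gene was marked where a peak overlapped (1 bp or more) the 1 kb around any start of its GENCODE M21 basic transcripts on chromosomes 1 to 19, X and Y, and the longest such peak gave its length. Gene bounds came from the basic transcripts. Lengths were compared as ratios, with 1.5 times as the count threshold. Python 3.11.15, pandas 2.3.3, numpy 2.4.6 and scipy 1.17.1 (exact binomial intervals) were used. The overlap code was tested on simulated peaks. The genes and lists were chosen with earlier results of these data known. Genes named are those with MBD2 beyond day 0, the 10 highest MBD2 folds at day 0, those lacking H3K4me3, the 5 longest and shortest peaks per library, the 5 extreme ratios each way, the stalk, the paralog pairs and Rpsa, Rps6, Rps27a, Rpl5 and Rpl11. Some genes this rule names are not reported here. The MBD2 genes beyond those 10, Rpl4, the motif genes and the sequences shown were chosen after their values were seen. The alternatives were windows, starts, stronger peaks, equal numbers of peaks, paralogs left out, covered bases, thresholds and scaling.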

Additional observations from a re-analysis of the deposited data

Results flagged for a closer look

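Of the 77 ribosomal protein genes marked in all the libraries compared, 4 had a longer H3K4me3 peak in myotubes than at day 0 and a shorter one in reserve cells. The ratios to day 0 were 1.16 in myotubes and 0.555 in reserve cells at Rps15, 1.04 and 0.675 at Rpl11, 1.03 and 0.752 at Rps27l, and 1.01 and 0.859 at Rpl38. These are 5.2% of the members, and 24.6% of all 11779 protein-coding genes marked in the 3 libraries moved in opposite directions in the same way. The difference between the fractions was not tested, since each state had 1 library, and both ratios share the day 0 library. No member moved the other way.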

How the results depend on the processing

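No paired analysis was possible because each antibody and state had 1 library, and no library could be left out for the same reason. Under the alternatives 103 values stayed near the main value and 19 moved. Near meant a count within 1.5 times, or a median within the 95% order-statistic interval of the main one over the members. The 103 include counts of 0 that stayed at 0, such as MBD2 in both day 5 fractions, which stricter settings could not change. The H3K4me3 counts stayed within 1.5 times but fell to 70, 64, 77 and 66 with the stronger 50% of each list, and to 76 in every state with the 5′ end as the only start. MBD2 at day 0 was called at 4 members with the stronger 50% of each list and at 0 with equal numbers of peaks in each MBD2 list, where day 1 gave 0 as well. Bases covered within 5 kb gave a median length of 3392 bp for day 1 and of 2799 bp for reserve cells. The count of members shorter than at day 0 was 14 at day 1 and 17 in myotubes by covered bases. With a ratio of 2 it was 9, 7 and 19 in the later states, beside 1.78%, 5.18% and 5.52% of all genes, and 3 members were longer in myotubes than in reserve cells. Divided by the median ratio of all genes the counts were 16, 17, 22 and 7. With only the members alone in their day 0 peak, an alternative chosen after seeing the data, they were 16, 15, 37 and 7. The stronger and equal-number lists were also added to the length counts after seeing the data. With 1 library per state the precision of every length is unknown, and the depth of the lists is not given.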
